A study of Mus musculus with 14 samples.

Results

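The report covers 39 genes of mitochondrial fuel use in spleen T cells of leukemic mice. They were picked by symbol in 3 groups: 20 genes of fatty acid uptake and oxidation, 15 genes of the citric acid cycle and 4 regulators of mitochondrial biogenesis. All 39 were found among the 24091 genes of the count table, and all 39 passed the filter on low counts that left 12248 genes for testing.

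The T cells came from 8 Mir142+/+BCR-ABL mice, a model of chronic phase chronic myelogenous leukemia (CP CML), and from 6 Mir142−/−BCR-ABL mice, a model of blast crisis (BC CML). Both groups were C57Bl/6j mice carrying CD45.2, male and female, 6 to 10 weeks old. Both carried the SCLtTA/BCR-ABL transgenes, in which an enhancer of the Scl gene, active in blood stem and progenitor cells, drives the transactivator of BCR-ABL, and both had BCR-ABL switched on for 3 weeks by withdrawing tetracycline (tet-off). Mir142 was deleted in the germline, so every cell of a BC CML mouse lacked it, and no mice without leukemia were analysed here. Each library held the RNA of 200000 sorted T cells of 1 mouse. The names of the BC CML mice carry another prefix than those of the CP CML mice, and what the prefixes stand for is not given in the sources used here, so whatever they mark and the difference in genotype cannot be told apart.

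Depth was similar in the groups, with 15703702 to 19914531 counted reads per CP CML mouse and 16145537 to 19399720 per BC CML mouse. The deleted gene, listed as Mir142, had 302 to 650 reads in the CP CML mice and 0 in each BC CML mouse. T cell markers were abundant throughout (summed level of 8 listed genes, 3220 to 3764 CPM in CP CML and 4222 to 4443 CPM in BC CML, where CPM is the count scaled to a common library total), but the makeup of the sorted cells moved with the group. All 7 naive T cell markers were lower in BC CML without overlap of their sums (4890 to 6238 against 2683 to 3852 CPM), Cd4 fell by 0.73 and Cd8a rose by 0.87 on the log2 scale. Myeloid markers were higher for 11 of 12 genes (sums of 70.3 to 722 against 842 to 2215 CPM), NK markers for 5 of 5 (127 to 164 against 410 to 551 CPM) and B cell markers for 6 of 7 (81.1 to 364 against 203 to 1220 CPM). Erythroid markers were higher for 4 of 6 tested (16.4 to 66.5 against 60.2 to 89.6 CPM), and Klf1, at 0 to 0.377 against 0.154 to 0.436 CPM, had too few reads to be tested. Mast cell and basophil markers were higher for 2 of 4 tested (4.86 to 10.9 against 19.2 to 49.6 CPM). Proliferation markers were higher for 0 and lower for 2 of 11 (676 to 861 against 613 to 1050 CPM). In a bulk library, fewer cells of a type and less RNA per cell cannot be told apart. The part of these markers in the results on the 39 genes was not tested.

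Fatty acids are oxidised in the mitochondrial matrix. Acyl-CoA synthetases first join them to coenzyme A, the carnitine shuttle carries the long ones across the inner membrane, and a cycle of dehydrogenase, hydratase, second dehydrogenase and thiolase cuts them into acetyl-CoA, with separate enzymes for long and for shorter chains. Acetyl-CoA from fat or from pyruvate enters the citric acid cycle, which strips electrons for the respiratory chain. In T cells, fatty acid oxidation is known for its place in memory and regulatory cells, while activated effector cells lean on glycolysis and glutamine.

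Because Mir142 was the deleted gene, its mature products and their matches among the 39 genes are shown first. Both arms come from chromosome 11 of GRCm38.p6, plus strand, the 5p arm from 87756867 to 87756887 and the 3p arm from 87756903 to 87756925. In the RefSeq sequences below, capitals mark the seed, bases 2 to 8 from the 5′ end, through which a microRNA mainly recognises its targets.
mmu-miR-142a-5p: cAUAAAGUagaaagcacuacu
mmu-miR-142a-3p: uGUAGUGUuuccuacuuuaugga

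The longest GENCODE vM21 3′UTR of each gene was searched for matches of 7 or 8 letters to each seed. The 5p seed had a match in 5 of the 39 genes, where 23.5% of 11509 tested genes with a 3′UTR had one, and the 3p seed also had a match in 5, where 12.1% had one. The median 3′UTR had 694 bases among the 39 genes and 1187 among all. The full 8-letter match to the 5p seed (8mer) stood in 3 of the genes, Mdh1, Fh1 and Etfdh, and in 5.22% of all genes searched. No member held the 8mer of the 3p seed. The 8mer sites are shown with their surroundings, as DNA letters on the gene's strand, with the match in capitals.
Mdh1, chromosome 11 from 21557215 to 21557222, minus strand: actctgtttctACTTTATAtttagtatctt
Fh1, chromosome 1 from 175601332 to 175601339, minus strand: ttaacttattcACTTTATAtcccactcact
Etfdh, chromosome 3 from 79603809 to 79603816, minus strand: tcataaataaaACTTTATAaataaacgaga

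Shorter matches stood in Acsl4 (twin sites of the 3p seed), Acsl5, Idh2, Tfam, Suclg2, Decr1 and, as a further match to the 5p seed beside its 8mer, Mdh1. Decr1 was the member with a match to each arm, and Acsl4 the one with more than 1 match to the 3p seed, so their sites are shown.
Decr1, 5p seed, chromosome 4 from 15918446 to 15918452, minus strand: tcattgttctcCTTTATAccctttcctct
Decr1, 3p seed, chromosome 4 from 15917608 to 15917614, minus strand: tacagcatgttCACTACActgaccgccac
Acsl4, 3p seed, chromosome X from 142320261 to 142320267, minus strand: attatgtattaACACTACtcaaagcagaa
Acsl4, 3p seed, chromosome X from 142319194 to 142319200, minus strand: atgtgggccacCACTACAacaaaatgagt

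Of the 3 genes with an 8mer, Etfdh rose slightly and Mdh1 and Fh1 did not pass the test. Of the others with a match, Acsl4, Decr1 and Suclg2 rose, Idh2 and Tfam fell, and Acsl5 did not pass. The values of each follow with its pathway. A match is a description of the letters and no measure of binding.

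Genes of both pathways moved in each direction. Among the 20 fatty acid genes, 10 rose and 5 fell in BC CML by edgeR's quasi-likelihood test (adjusted p below 0.05 over all tested genes), and 5 did not pass. Over all 12248 genes tested, 32.6% were called higher and 32.7% lower. The median log2 fold change of the 20 genes was 0.12, from -0.55 to 1.11, where the median of all genes was -0.01. Their median absolute change was 0.30, against 0.28 over all genes. Every BC CML mouse lay above every CP CML mouse for 7 of the 20 genes (19.3% of all genes tested) and below for 3 (17.6%).

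Among the 15 citric acid cycle genes, 7 were higher (32.6% of all genes tested), 2 were lower (32.7%) and 6 did not pass. Their median log2 fold change was 0.06 and their median absolute change 0.13, so most differences in the cycle were small. The groups were apart for 3 of these genes, all with BC CML above (19.3% of all genes tested, with 17.6% below). Of the 4 regulators, Esrra rose, Tfam and Ppargc1b fell, and Nrf1 did not pass.

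**Figure D1:**
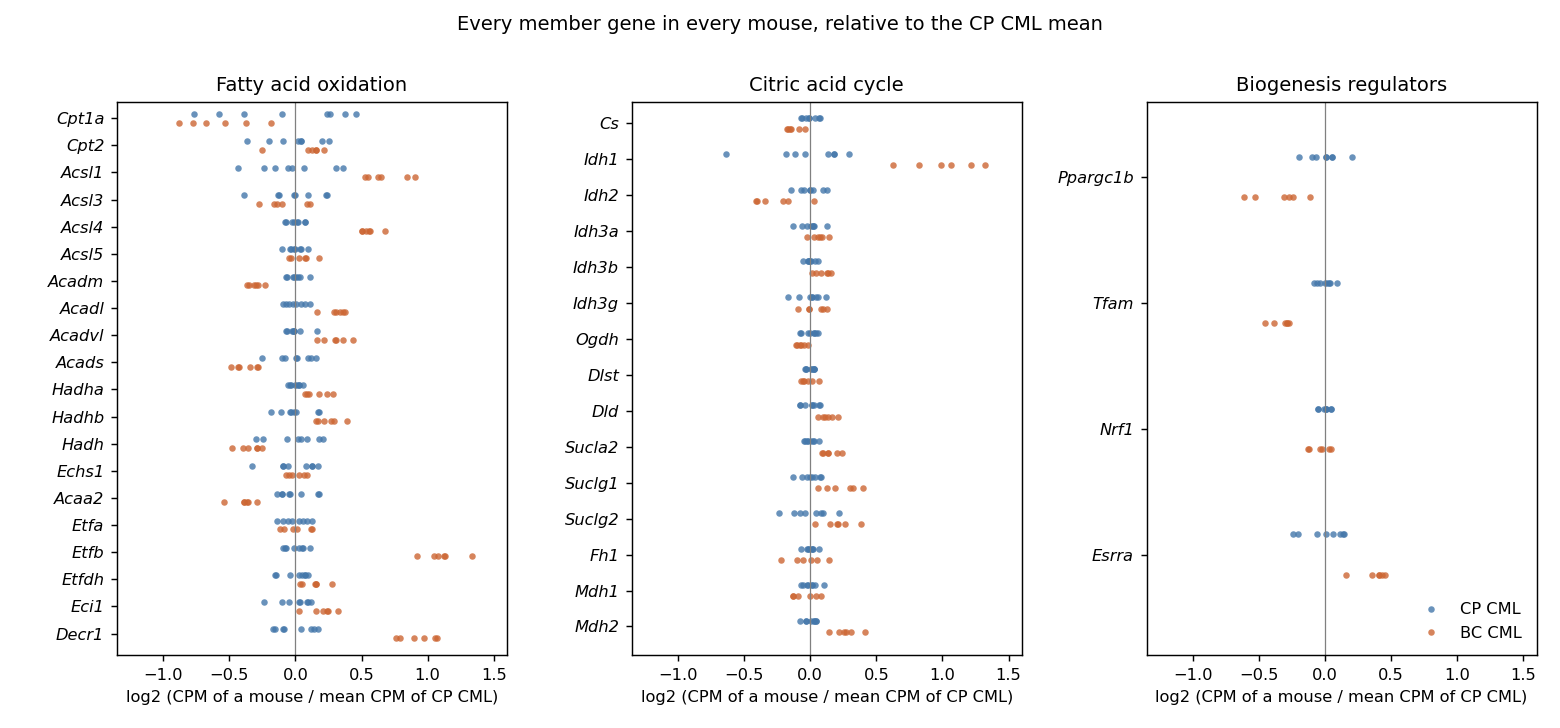
Each row is 1 of the 39 genes and each point 1 mouse, placed at the log2 ratio of its CPM to the mean CPM of the 8 CP CML mice (blue, CP CML; orange, BC CML). Etfb, Idh1, Decr1, Acsl1 and Acsl4 stand to the right of all CP CML mice, the CP CML points of Cpt1a spread over a wider range than those of the other genes, and most cycle genes sit near 0.

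Activation of fatty acids was described by 4 acyl-CoA synthetases, and 2 of them rose. Acsl4, which prefers arachidonic and other polyunsaturated acids, lies on chromosome X from 142317993 to 142390535. Its level was 99.0 to 109.9 CPM (median 104.9) in the 8 CP CML mice and 148.5 to 167.7 CPM (median 153.0) in the 6 BC CML mice. The groups did not overlap, and the log2 fold change was 0.56 (SE 0.04, adjusted p = 4.96e-10), a 1.47-fold rise.

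Acsl1, the main synthetase of fat and liver, lies on chromosome 8 from 46471037 to 46536051. Its level was 10.7 to 18.5 CPM (median 14.04) in CP CML and 20.8 to 26.9 CPM (median 22.4) in BC CML, again without overlap. It rose by 0.69 on the log2 scale (SE 0.11, adjusted p = 2.54e-05). Acsl5, the most abundant of the 4 in CPM per kb, had a log2 fold change of 0.05 (adjusted p = 0.326), and Acsl3, the least abundant, one of -0.07 (adjusted p = 0.536). Acsl3 overlaps Utp14b on the same strand (4.73 and 2.98 CPM) and Acsl5 overlaps Zdhhc6 on the opposite strand (42.1 and 35.7 CPM), so their counts are less certain. Per length of the gene model, the level of Acsl4 was 0.333 to 0.403 of that of Acsl5 in CP CML and 0.480 to 0.589 of it in BC CML. This and the other ratios below were formed after the values had been seen and were not tested.

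Entry into the mitochondrion was lower at its first gene. Cpt1a (chromosome 19 from 3323301 to 3385733) encodes the outer membrane carnitine palmitoyltransferase, the rate-limiting step of long-chain oxidation. Its CP CML levels were 147.8, 170.0, 145.7, 94.1, 82.6, 72.5, 160.3 and 115.3 CPM, and its BC CML levels 67.0, 85.5, 72.1, 108.5, 95.2 and 77.4 CPM. The CP CML mice were spread over a wide range whose lower end overlapped the BC CML mice, and 5 of the 8 lay above every BC CML mouse. The Cpt1a log2 fold change was -0.55 (SE 0.20, adjusted p = 0.0296). This call was lost without any 1 of 7 mice, CP CML replicates 1, 2, 3 and 7 and BC CML replicates 1, 3 and 6, with adjusted p from 0.0516 to 0.0654. Leaving out the mouse with the highest myeloid sum of each group gave -0.54 (adjusted p = 0.07).

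Cpt1a also varied more between mice of a group than any of the other 38 genes. Its coefficient of variation was 30.3% in CP CML and 18.4% in BC CML, where the others ran from 2.00% to 18.6% (median 5.26%) and from 2.36% to 17.3% (median 6.11%). Cpt2, the inner membrane partner that hands the acyl group back to coenzyme A, had 8.70 to 13.4 CPM in CP CML and 9.37 to 13.0 CPM in BC CML, with a log2 fold change of 0.09 (adjusted p = 0.429). Slc25a20, the translocase that carries acylcarnitines between these enzymes and no member of the 39, had 20.1 to 32.6 CPM (median 27.97) in CP CML and 17.2 to 21.8 CPM (median 20.1) in BC CML. Its groups overlapped at the low end of CP CML, and it fell by 0.48 (SE 0.10, adjusted p = 3.18e-04).

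Within the 8 CP CML mice, Slc25a20 tracked Cpt1a, a relation picked after the values had been seen. Pearson's r between their log2 CPM was 0.97 (exact permutation p = 0.000124, adjusted p = 0.0122 over 98 relations of Cpt1a), and Spearman's rho was 0.98 (exact permutation p = 0.000397, adjusted p = 0.0389). Without the 2 mice farthest from the median of Cpt1a, r was 0.98. In the 6 BC CML mice r was 0.88 and rho 0.77, and neither passed adjustment (exact permutation p = 0.0222 and 0.103, adjusted p = 0.261 and 0.458), and r was 0.61 without the 2 farthest mice. Acaa2, a member, had an r of 0.83 with Cpt1a in CP CML and 0.70 in BC CML, which did not pass either (exact permutation, adjusted p = 0.181 and 0.495). The myeloid marker sum had an r of 0.13 with Cpt1a in CP CML and 0.43 in BC CML (exact permutation, adjusted p = 0.915 and 0.749). In CP CML, replicates 2 and 7, highest in Cpt1a, had the highest naive T cell marker sums (6025 and 6238 CPM). Replicates 5 and 6, lowest in Cpt1a, had the lowest (4890 and 5272 CPM). In BC CML, replicates 1 and 3, lowest in Cpt1a, had the highest naive sums (3436 and 3852 CPM). The naive sums were read after the values had been seen, and their relation with Cpt1a was not tested.

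**Figure D2:**
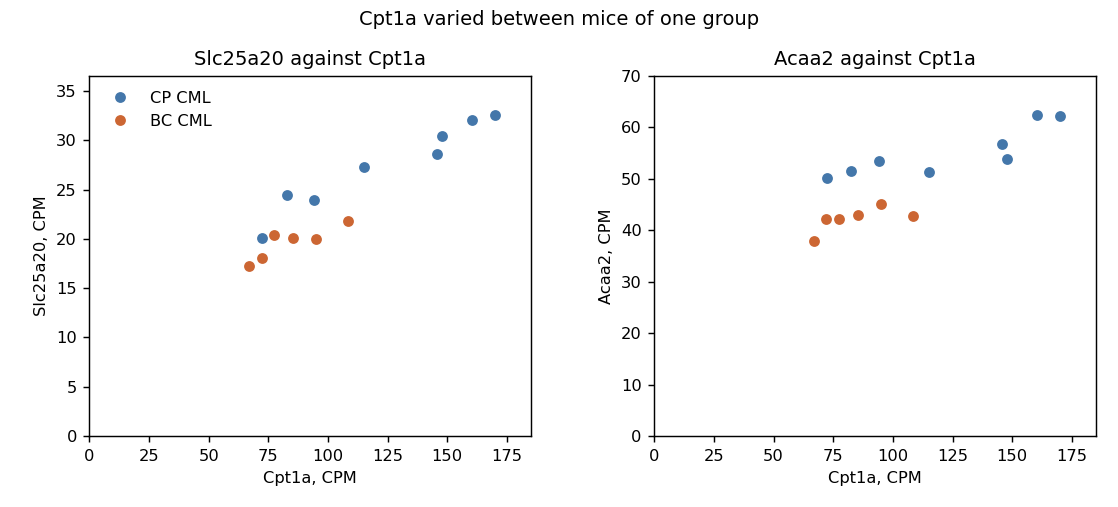
Each point is 1 mouse, with the CPM of Cpt1a on the x axis and the CPM of Slc25a20 (left) or Acaa2 (right) on the y axis (blue, CP CML; orange, BC CML). Slc25a20 goes from 20.1 to 32.6 CPM along the Cpt1a range of the CP CML mice, and the BC CML mice lie at the low end, from 17.2 to 21.8 CPM.

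The enzymes of the oxidation cycle are given by the chain length they act on, an order chosen with the values known. The first step is taken by acyl-CoA dehydrogenases. Acadvl, for very long chains, had 76.1 to 89.2 CPM (median 79.0) in CP CML and 89.6 to 107.9 CPM (median 98.5) in BC CML, and Acadl, for long chains, 49.7 to 57.2 CPM (median 52.8) against 59.3 to 69.0 CPM (median 66.3). Both rose without overlap, Acadvl by 0.30 (SE 0.05, adjusted p = 1.82e-05) and Acadl by 0.31 (SE 0.04, adjusted p = 6.35e-06). The highest CP CML value of Acadvl, 89.2 CPM, stood just under the lowest BC CML value, 89.6 CPM. Dvl2 overlaps Acadvl by 2119 bases on the opposite strand (means of 30.2 and 31.6 CPM, log2 fold change 0.07, adjusted p = 0.381), and reads of overlapping genes may have been shared.

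The dehydrogenases of medium and short straight chains were lower. Acadm, for medium chains, had 50.3 to 56.9 CPM (median 52.6) in CP CML and 41.0 to 45.1 CPM (median 42.7) in BC CML, and it fell by 0.31 (SE 0.04, adjusted p = 1.75e-06). Acads, for short chains, had 18.7 to 24.8 CPM (median 22.4) against 15.9 to 18.3 CPM (median 17.05) and fell by 0.37 (SE 0.07, adjusted p = 8.11e-05). Every BC CML mouse lay below every CP CML mouse for each of these genes. Of the related dehydrogenases that are no members, Acadsb, for short branched chains, rose without overlap (21.6 to 26.0 against 26.3 to 33.5 CPM, log2 fold change 0.24, adjusted p = 0.00145), Acad10 fell with overlap (-0.60, adjusted p = 2.66e-04), and Acad11 did not pass (-0.05, adjusted p = 0.570). Per length, the summed level of Acadl and Acadvl was 1.61 to 1.84 times that of Acadm and Acads in CP CML (median 1.69) and 2.44 to 2.81 times in BC CML (median 2.67).

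The later steps follow. Hadha and Hadhb encode the subunits of the mitochondrial trifunctional protein, which carries long chains through hydratase, dehydrogenase and thiolase. Hadha had 150.6 to 162.9 CPM (median 157.1) in CP CML and 164.9 to 190.6 CPM (median 172.5) in BC CML, apart, with a log2 fold change of 0.16 (SE 0.04, adjusted p = 0.00111). Hadhb had 74.1 to 95.4 CPM (median 83.3) against 93.9 to 110.6 CPM (median 99.9), overlapping at 1 edge, with a log2 fold change of 0.25 (SE 0.06, adjusted p = 7.67e-04). The ratio of these subunits per length overlapped between groups (0.734 to 0.917 and 0.741 to 0.830).

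Of the 3 member enzymes of these steps for shorter chains, Hadh and Acaa2 were lower. Hadh, the second dehydrogenase, had 30.7 to 43.8 CPM (median 38.6) in CP CML and 27.1 to 31.7 CPM (median 30.2) in BC CML, a fall of 0.34 (SE 0.08, adjusted p = 6.49e-04) with overlap at the low end of CP CML. Acaa2, the thiolase, had 50.1 to 62.5 CPM (median 53.6) against 38.0 to 45.2 CPM (median 42.5), with no overlap, and fell by 0.39 (SE 0.06, adjusted p = 1.28e-05). Echs1, the short-chain hydratase, had 27.0 to 38.2 CPM against 32.2 to 36.0 CPM and a log2 fold change of 0.01 (adjusted p = 0.944). The changes by chain length are a description and were not tested as a group, and Acadsb and the long-chain shuttle genes Cpt1a and Slc25a20 went the other way. Per length, Hadha stood at 3.903 to 5.56 times Hadh in CP CML and 5.83 to 6.70 times in BC CML, and Hadhb at 1.05 to 1.18 times Acaa2 against 1.59 to 1.89 times.

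**Figure D3:**
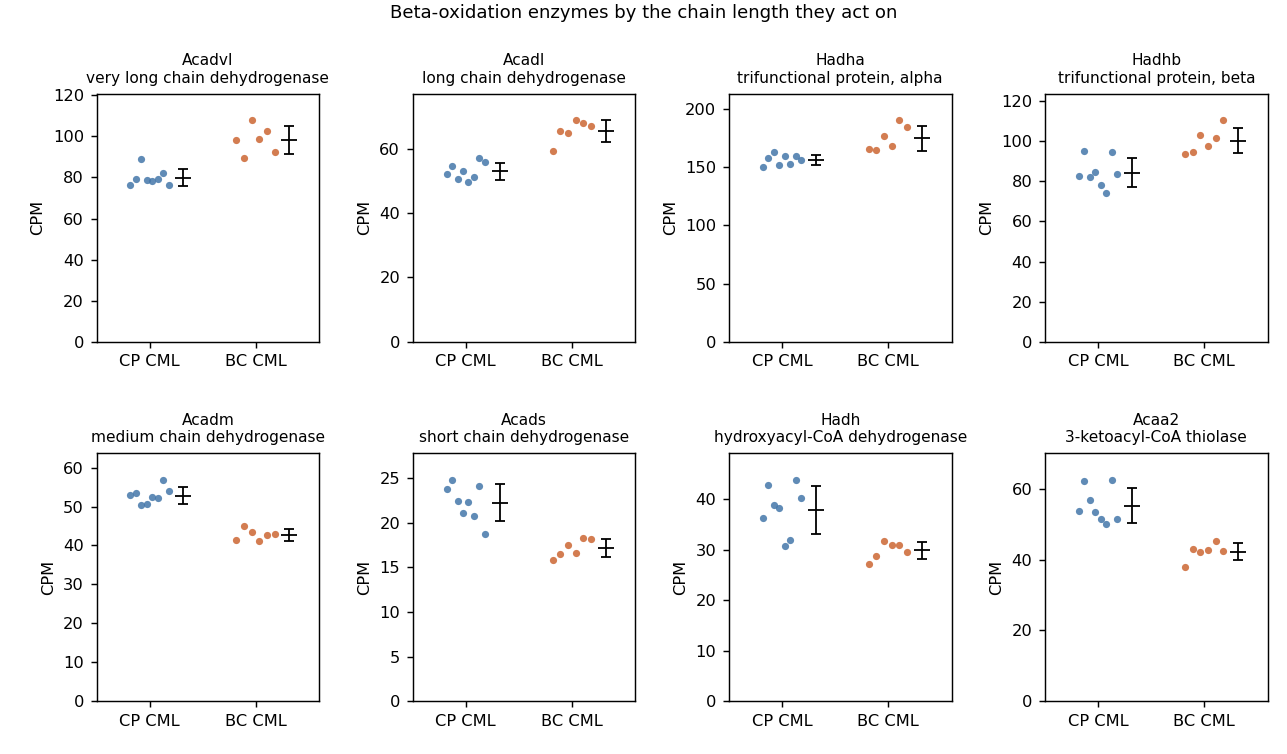
CPM of 8 oxidation enzymes, with 1 point per mouse beside the mean and SD of its group (8 CP CML mice, blue; 6 BC CML mice, orange; y axes start at 0). The upper row, enzymes of long chains, is higher in BC CML, with Acadvl medians of 79.0 and 98.5 CPM, and the lower row, the 4 member enzymes of shorter chains that passed the test, is lower, with Acadm medians of 52.6 and 42.7 CPM; Echs1, which did not pass, is not drawn.

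Hadha and Hadhb are read in opposite directions from starts 272 bases apart on chromosome 5, so a window upstream of Hadhb is also upstream of Hadha. It is shown because the genes moved together. The RefSeq window of Hadhb, chr5:30155003-30155302 of GRCm38.p6 on the plus strand, covers 250 bases before its start and 50 after. It held none of the 3 motifs searched on both strands, the NRF1 core CGCATGCG, the ERR element AAGGTCA and the GABP/ETS core CCGGAAG.
Hadhb: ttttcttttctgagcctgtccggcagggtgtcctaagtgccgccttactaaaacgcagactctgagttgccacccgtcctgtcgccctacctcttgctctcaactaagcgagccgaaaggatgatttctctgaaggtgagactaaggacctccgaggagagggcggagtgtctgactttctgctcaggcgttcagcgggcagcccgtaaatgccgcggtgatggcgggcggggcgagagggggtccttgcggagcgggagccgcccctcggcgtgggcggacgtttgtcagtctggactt

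Acadm, a gene that fell, held the letters of both the NRF1 core and, on the other strand, the ERR element (capitals) in its window, chr3:153944594-153944893 on the minus strand. Its sequence is shown because Nrf1 and Esrra are themselves among the 39 genes.
Acadm: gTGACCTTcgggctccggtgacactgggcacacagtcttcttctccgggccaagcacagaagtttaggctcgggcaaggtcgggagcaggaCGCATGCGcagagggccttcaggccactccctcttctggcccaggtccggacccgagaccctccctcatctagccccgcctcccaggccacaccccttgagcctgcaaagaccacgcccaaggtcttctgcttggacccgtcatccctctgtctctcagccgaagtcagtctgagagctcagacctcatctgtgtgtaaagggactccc

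RefSeq windows were found for 35 of the 39 genes, 43 windows in all. The NRF1 core stood in 3 of these genes (Acadm, Etfdh and Ogdh) and 4 of the 43 windows. Overlapping windows of Ogdh held the same NRF1 site. Of all 32851 windows 1.87% held the NRF1 core, and of the windows of tested genes 3.83%. The ERR element stood in 2 genes and 2 windows (Acadm and Ogdh, against 4.72% and 3.23%). The GABP/ETS core stood in 5 genes and 5 windows (Cpt2, Dlst, Idh3b, Idh3g and Tfam, against 8.86% and 17.9%). Of these 8 genes, Etfdh and Idh3b rose, Acadm and Tfam fell and the other 4 did not pass the test. A match is a description of the letters in the window.

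Both member genes among the auxiliary enzymes of unsaturated fatty acids rose. Decr1, the dienoyl-CoA reductase that prepares double bonds for the cycle, lies on chromosome 4 from 15917240 to 15945507. Its level was 15.6 to 19.8 CPM (median 17.3) in CP CML and 29.7 to 37.0 CPM (median 33.6) in BC CML. Every BC CML mouse was far above the highest CP CML mouse, and the log2 fold change was 0.93 (SE 0.07, adjusted p = 3.12e-09). Eci1, an enoyl-CoA isomerase of the same task, had 13.7 to 17.4 CPM against 16.4 to 20.1 CPM and rose by 0.20 (SE 0.07, adjusted p = 0.0117), with overlap. Of their counterparts that are no members, Decr2 fell without overlap (-0.47, adjusted p = 9.01e-05) and Eci2 did not pass (-0.14, adjusted p = 0.0814).

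Electron transfer from the acyl-CoA dehydrogenases held the largest change of the 39 genes. The electron transfer flavoprotein pairs an alpha subunit (Etfa) with a beta subunit (Etfb) and hands electrons to the dehydrogenase Etfdh in the inner membrane. Etfb lies on chromosome 7 from 43444072 to 43457800. Its CP CML levels were 29.5, 31.2, 30.1, 28.8, 27.1, 27.5, 27.6 and 30.0 CPM, and its BC CML levels 61.2, 73.2, 63.2, 63.6, 59.8 and 54.7 CPM. The groups were far apart, and the spread within CP CML was small. The log2 fold change was 1.11 (SE 0.06, adjusted p = 1.59e-11), a 2.16-fold rise.

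Its partner did not share this rise. Etfa had 43.0 to 51.8 CPM (median 47.4) in CP CML and 43.6 to 51.6 CPM (median 47.3) in BC CML, with a log2 fold change of 0.01 (SE 0.05, adjusted p = 0.920). Etfdh had 41.95 to 49.8 CPM (median 47.8) against 47.8 to 56.5 CPM (median 51.7) and rose by 0.14 (SE 0.05, adjusted p = 0.0230), a call lost without BC CML replicate 4 (0.11, adjusted p = 0.0768). Per length, the level of Etfb was 0.886 to 1.09 times that of Etfa in CP CML (median 0.981) and 1.72 to 2.71 times in BC CML (median 2.17). The subunits stood near equal levels in every CP CML mouse and in no BC CML mouse.

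Cldnd2, the gene that ends 751 bases before Etfb on the same strand, also rose, from a mean of 3.12 to 17.6 CPM (log2 fold change 2.49, adjusted p = 2.22e-07). The gene models do not overlap, and its part in the count of Etfb was not tested.

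**Figure D4:**
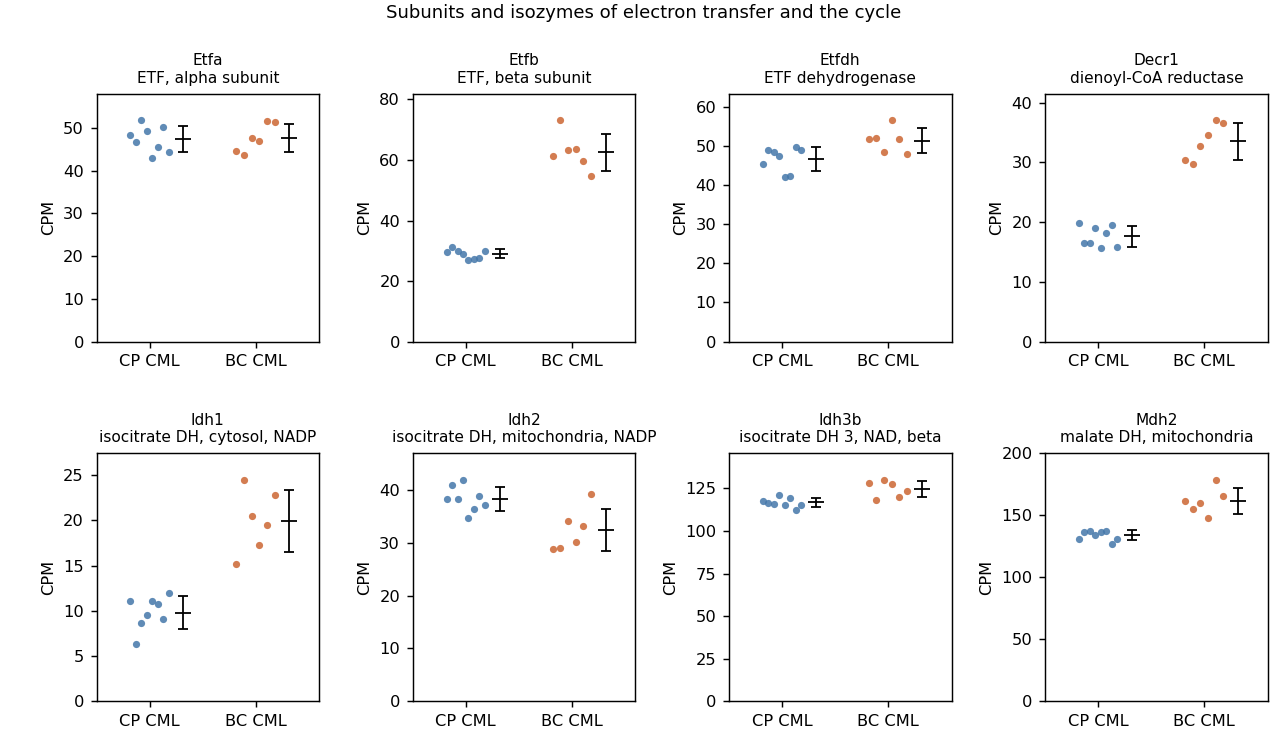
CPM of the electron transfer genes, Decr1 and 4 dehydrogenases of the citric acid cycle (DH in the panel titles), with 1 point per mouse beside the mean and SD of its group (8 CP CML mice, blue; 6 BC CML mice, orange; y axes start at 0). Etfb goes from a median of 29.2 to 62.2 CPM while Etfa stays at 47.4 and 47.3 CPM, and Idh1 rises from a median of 10.1 to 20.0 CPM while Idh2 goes from 38.3 to 31.7 CPM.

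In the citric acid cycle, the entry step was slightly lower. Cs, citrate synthase, had 192.1 to 212.0 CPM (median 200.5) in CP CML and 178.7 to 196.2 CPM (median 182.0) in BC CML, with overlap and a log2 fold change of -0.13 (SE 0.03, adjusted p = 0.00374).

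The isocitrate dehydrogenases differ in compartment and cofactor, and their genes did not move together. Idh1, the NADP-dependent enzyme of the cytosol, lies on chromosome 1 from 65158616 to 65186479. Its CP CML levels were 11.1, 6.29, 8.63, 9.52, 11.1, 10.8, 9.07 and 12.01 CPM, and its BC CML levels 15.1, 24.5, 20.5, 17.3, 19.4 and 22.8 CPM. No BC CML mouse reached down to the CP CML range, and the log2 fold change was 1.02 (SE 0.13, adjusted p = 2.2e-06). Idh2, the NADP-dependent enzyme of the mitochondrion, had 34.7 to 41.9 CPM (median 38.3) against 28.9 to 39.2 CPM (median 31.7) and fell by 0.24 (SE 0.07, adjusted p = 0.00420), with overlap.

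The level of Idh1 per length was 0.111 to 0.233 of that of Idh2 in CP CML (median 0.189) and 0.378 to 0.610 in BC CML (median 0.421). Idh2 remained the more abundant transcript in every mouse. The NAD-dependent enzyme of the cycle has 3 kinds of subunit. Idh3b rose by 0.09 (SE 0.03, adjusted p = 0.0165), with 112.5 to 121.3 CPM in CP CML and 118.0 to 130.1 CPM in BC CML, while Idh3a and Idh3g had log2 fold changes of 0.06 and 0.03 (adjusted p = 0.180 and 0.549).

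The 2-oxoglutarate dehydrogenase complex changed little. Ogdh, its first subunit, had 265.4 to 290.4 CPM in CP CML and 260.0 to 276.9 CPM in BC CML (log2 fold change -0.07, adjusted p = 0.0692). Dlst, the succinyltransferase core, had a log2 fold change of -0.02 (adjusted p = 0.629). Dld, the lipoamide dehydrogenase that it shares with other complexes, had 80.8 to 89.7 CPM against 89.0 to 99.0 CPM and rose by 0.13 (SE 0.04, adjusted p = 0.00432).

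All 3 genes of succinyl-CoA ligase rose. The alpha subunit Suclg1 had 59.0 to 68.3 CPM (median 64.9) in CP CML and 67.1 to 85.1 CPM (median 76.5) in BC CML, overlapping at 1 edge, with a log2 fold change of 0.24 (SE 0.05, adjusted p = 6.74e-04). Sucla2, the ADP-forming beta subunit, had 47.6 to 51.3 CPM (median 48.9) against 52.2 to 58.0 CPM (median 53.8), apart, and rose by 0.15 (SE 0.04, adjusted p = 0.00135). Suclg2, the GDP-forming beta subunit, rose by 0.21 (SE 0.07, adjusted p = 0.00922) with overlap. The ratio of the beta subunits overlapped between groups (1.32 to 1.87 and 1.28 to 1.61).

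Of the later steps, Fh1, fumarate hydratase, had 37.2 to 40.9 CPM in CP CML and 33.4 to 43.1 CPM in BC CML (log2 fold change -0.02, adjusted p = 0.680). Kmo overlaps it on the opposite strand and went from 2.63 to 5.63 CPM, and the strand setting of the counting is not given in the sources used here. Mdh2, the mitochondrial malate dehydrogenase (chromosome 5 from 135778649 to 135790386), had 127.0 to 137.7 CPM (median 135.2) against 147.8 to 178.6 CPM (median 160.6). It rose without overlap by 0.27 (SE 0.04, adjusted p = 1.03e-05). Mdh1, the cytosolic enzyme, had 137.4 to 154.7 CPM against 131.3 to 152.4 CPM (log2 fold change -0.04, adjusted p = 0.445). Per length, Mdh2 stood at 1.34 to 1.53 times Mdh1 in CP CML and 1.71 to 1.88 times in BC CML, a shift toward the mitochondrial form, where the pair of Idh1 and Idh2 shifted toward the cytosolic form.

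Among the regulators, Tfam, which packages and transcribes mitochondrial DNA, lies on chromosome 10 from 71225477 to 71238273. It had 72.9 to 82.3 CPM (median 77.5) in CP CML and 56.3 to 63.7 CPM (median 62.9) in BC CML. It fell in every BC CML mouse below the CP CML range, by 0.33 (SE 0.04, adjusted p = 9.38e-07). Ppargc1b, a coactivator of mitochondrial genes, had 13.5 to 17.8 CPM (median 15.6) against 10.1 to 14.3 CPM (median 12.6) and fell by 0.34 (SE 0.08, adjusted p = 0.00168), with overlap.

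Esrra, the nuclear receptor ERRα, went the other way. It lies on chromosome 19 from 6910977 to 6921808 and had 26.5 to 34.6 CPM (median 32.1) in CP CML and 35.0 to 42.9 CPM (median 41.6) in BC CML, with a log2 fold change of 0.37 (SE 0.07, adjusted p = 1.04e-04). The groups were apart by a narrow gap, since BC CML replicate 5 stood at 35.0 CPM. Nrf1, an activator of nuclear genes for mitochondrial proteins, had 54.98 to 59.1 CPM against 52.2 to 59.0 CPM and a log2 fold change of -0.04 (adjusted p = 0.400). Per length, the level of Esrra was 0.301 to 0.442 of that of Tfam in CP CML and 0.515 to 0.714 in BC CML.

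Tfam held the GABP/ETS core (capitals) in its RefSeq window, chr10:71237995-71238294 on the minus strand, shown because it had the lowest p of the regulators.
Tfam: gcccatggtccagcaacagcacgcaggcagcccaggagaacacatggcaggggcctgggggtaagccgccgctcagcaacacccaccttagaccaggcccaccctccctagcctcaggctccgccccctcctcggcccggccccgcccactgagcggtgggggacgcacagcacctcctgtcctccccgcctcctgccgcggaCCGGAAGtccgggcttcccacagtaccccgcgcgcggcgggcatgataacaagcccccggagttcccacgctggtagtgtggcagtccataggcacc

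The 4 genes with the largest rises, Etfb, Idh1, Decr1 and Acsl1, were also set beside the myeloid marker sum of each mouse, since that sum was higher in BC CML. CP CML replicate 4 had the lowest sum, 70.3 CPM, and CP CML replicate 8 the highest of its group, 722 CPM. Between these mice Etfb was 28.8 and 30.0 CPM, Decr1 19.0 and 15.8 CPM, Idh1 9.52 and 12.01 CPM and Acsl1 10.7 and 15.1 CPM. BC CML replicate 1, with the lowest sum of its group at 842 CPM, had 61.2 CPM of Etfb, 30.4 of Decr1, 15.1 of Idh1 and 21.1 of Acsl1. BC CML replicate 6, with the highest sum at 2215 CPM, had 54.7 CPM of Etfb, 36.6 of Decr1, 22.8 of Idh1 and 26.9 of Acsl1. Acsl1, Decr1 and Idh1 were thus higher, and Etfb lower, in the BC CML mouse with the highest sum than in the one with the lowest. The 3 BC CML mice with the highest sums had the 3 highest levels of Acsl1 and of Decr1 in their group, Etfb was lowest in the mice with the highest sums (59.8 and 54.7 CPM in replicates 5 and 6), and Idh1 was highest in replicate 2 (24.5 CPM), whose sum was 1100 CPM. Over all CP CML mice Etfb ranged from 27.1 to 31.2, Decr1 from 15.6 to 19.8, Idh1 from 6.29 to 12.01 and Acsl1 from 10.7 to 18.5 CPM. In BC CML replicates 1 to 6, Etfb was 61.2, 73.2, 63.2, 63.6, 59.8 and 54.7 CPM. Their NK marker sums were 443.5, 532.5, 539.3, 551.4, 409.5 and 417.3 CPM, and their Cd8a levels 1236, 1302, 1478, 1391, 1100 and 1071 CPM. Replicates 2, 3 and 4 were highest in all of these. The myeloid sums of the groups did not overlap, and neither did the NK sums. The part of myeloid, NK or Cd8a-expressing cells in these rises was not tested. Without the mouse of the highest sum in each group, 10 of the 20 fatty acid genes were higher and 4 lower, 7 of the 15 cycle genes were higher and 2 lower, and 1 regulator was higher and 2 were lower.

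**Figure D5:**
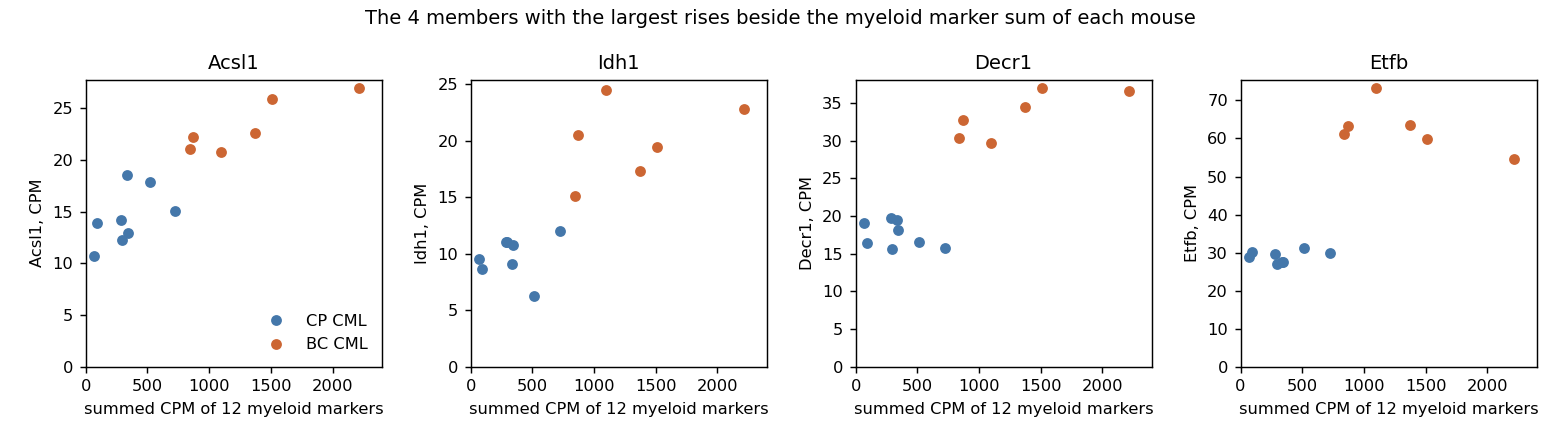
Each point is 1 mouse (blue, CP CML; orange, BC CML), with the summed CPM of 12 myeloid markers on the x axis and the CPM of Acsl1, Idh1, Decr1 or Etfb on the y axis, both from 0. The myeloid sums, 70.3 to 722 CPM in CP CML and 842 to 2215 CPM in BC CML, do not overlap, and each of the 4 genes is higher in every BC CML mouse than in every CP CML mouse.

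The wider pathways were read from lists of other genes, to be set beside the 32.6% higher and 32.7% lower over all genes tested. Of 34 other genes of fatty acid uptake, transport and breakdown, 29 were tested, of which 10 were higher, 12 lower and 7 not called (median log2 fold change -0.06). Abcd2, a peroxisomal transporter of very long chains, had 1.15 to 2.77 CPM in CP CML and 3.72 to 10.7 CPM in BC CML (log2 fold change 1.96, adjusted p = 4.31e-07). Crat, carnitine acetyltransferase, rose from 4.06 to 6.10 CPM to 7.65 to 10.97 CPM (0.81). The largest falls without overlap were in Acacb, the acetyl-CoA carboxylase of the mitochondrial membrane whose product malonyl-CoA inhibits Cpt1 (4.09 to 7.00 against 1.36 to 2.87 CPM, -1.53, adjusted p = 6.56e-07), and Ehhadh, the peroxisomal bifunctional enzyme (12.9 to 17.3 against 6.12 to 7.10 CPM, -1.21, adjusted p = 7.09e-10). Acat1, the mitochondrial acetoacetyl-CoA thiolase, and Lipa, the lysosomal acid lipase, fell by 0.57 and 0.56 without overlap.

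Of 31 other genes around the cycle, 28 were tested, of which 12 were higher, 8 lower and 8 not called (median 0.12). Pdk1, a kinase that shuts the pyruvate dehydrogenase complex, had 283.4 to 369.6 CPM (median 346.4) in CP CML and 125.3 to 175.9 CPM (median 155.2) in BC CML, a fall of 1.14 (SE 0.07, adjusted p = 4.09e-10) far outside the spread of either group. Pdp2, a phosphatase that opens the same complex, fell by 0.80, and Nnt, the gene of nicotinamide nucleotide transhydrogenase, by 0.44. Pcx, pyruvate carboxylase, and Pck2, mitochondrial phosphoenolpyruvate carboxykinase, each rose by 0.76, and Aco1, the cytosolic aconitase, by 0.51. All of these were apart between groups. In succinate dehydrogenase, Sdha fell by 0.18 (adjusted p = 1.80e-04) and Sdhb rose by 0.19 (adjusted p = 5.88e-05), both without overlap, while Sdhc and Sdhd did not pass (-0.05 and 0.00, adjusted p = 0.310 and 0.964).

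Of 24 other biogenesis genes, 20 were tested, of which 7 were higher, 9 lower and 4 not called (median -0.08). From this list, 8 genes of mitochondrial DNA transcription and replication were picked after their values were seen, and they are no tally of a pathway. Tfb1m (by 0.68), Tfb2m (by 0.56), Polg (by 0.40) and Polrmt (by 0.30) fell without overlap. Tefm (by 0.32) and Ssbp1 (by 0.19) fell with overlap, while Polg2 and Twnk did not pass (-0.04 and -0.06, adjusted p = 0.712 and 0.528). Over all genes tested, 32.7% were called lower, and for 17.6% every BC CML mouse lay below every CP CML mouse. Pprc1, a coactivator related to Ppargc1b, fell by 0.55. The nuclear receptors Rxra and Ppard rose by 0.58 and 0.42, also apart. Ppargc1a had too few reads to be tested, with 0.216 to 0.7003 CPM in CP CML and 0.210 to 0.561 CPM in BC CML.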

How the data were processed

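Sorted spleen T cells of 14 mice were sequenced as paired 101-base mRNA libraries, 1 per mouse. The authors trimmed the reads, aligned them with STAR 2.6.0 to mm10, counted them with HTSeq 0.11.1 and deposited raw counts for 24091 genes with positions and lengths. The annotation and strand setting of the counting are not given in the sources used here.

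Counts were tested with edgeR 4.0.16 in R 4.3.3: filterByExpr on group, TMM factors, glmQLFit (robust) and glmQLFTest for BC CML minus CP CML, without covariates, with Benjamini-Hochberg adjustment over 12248 genes at 0.05. The standard error (SE) is the absolute log2 fold change divided by the square root of F. CPM are counts scaled to a common library total with TMM factors; levels of different genes were compared only as CPM per kb of the deposited length. Correlations used log2 of CPM plus 0.01 with exact two-sided permutation tests. The p-values rest on the variation between these mice.

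All 39 genes were named; from the other lists, up to 6 called genes without overlap and with the largest change, Sdha to Sdhd, Slc25a20 and Ppargc1a. A further gene that the rule names is not reported here. Neighbouring and overlapping genes, Acadsb, Acad10, Acad11, Decr2, Eci2 and the further genes of mitochondrial DNA upkeep were named after their values were seen. The members and lists were chosen with earlier results of these data known. Alternatives were the omission of each mouse in turn, a block on replicate number, scaling by RLE or by library size only, no low-count filter or one of over 1 CPM in 6 libraries, edgeR's likelihood ratio test and DESeq2 1.42.0. Leaving out the mouse with the highest myeloid sum of each group was added after seeing the data. Chi-square per degree of freedom between replicates was 2.99 to 20.8 in CP CML and 7.89 to 21.6 in BC CML, so no library was a repeat of another.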

Additional observations from a re-analysis of the deposited data

Results flagged for a closer look

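For each of the 39 genes in each group, the mouse at either end was compared with its neighbour by Dixon's test at 95%, and 4 of 78 sets of values passed, where chance gives about 1 in 20. Cpt2 in BC CML replicate 1 was low at 9.37 CPM, with the next mouse at 11.97 CPM. Acsl4 in BC CML replicate 6 was high at 167.7 CPM, with the next at 154.5 CPM. Acadvl in CP CML replicate 3 was high at 89.2 CPM, with the next at 81.99 CPM. Esrra in BC CML replicate 5 was low at 35.0 CPM, with the next at 40.2 CPM. The rises of Acsl4, Acadvl and Esrra passed the test with each mouse left out in turn, and Cpt2 passed in no setting.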

How the results depend on the processing

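The count of the 39 genes called either way was 27, between 24 and 28 under the other settings and 26 to 27 with 1 mouse left out. Each count of a list remained within 1.5 times its first value in every setting, and 31 of the 39 genes kept their direction and their side of the threshold in all of them. Scaling by library size only turned the Echs1 log2 fold change to -0.004 and the Etfa log2 fold change to -0.0029, and without the mouse of the highest myeloid sum in each group they were -0.0015 and -0.029. With 1 mouse left out, Echs1 ranged from -0.0358 to 0.0313, Etfa from -0.0201 to 0.0305 and the Fh1 log2 fold change from -0.0638 to 0.0106. None of these passed the test in any setting. The Ogdh log2 fold change passed with DESeq2 (-0.06, adjusted p = 0.0468), when scaled by library size only (-0.08, adjusted p = 0.0282) and without CP CML replicate 1 or 7 or BC CML replicate 3. The cause was not tested.

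Mice that share a replicate number are different animals and showed no pairing, as the correlation of their deviations from the group means ran from -0.27 to 0.36 over 6 pairs. With the replicate block, 24 of the 39 genes were called, 9 fatty acid genes higher and 4 lower, and 6 cycle genes higher and 2 lower. Cpt1a (-0.44, adjusted p = 0.143), Eci1 (0.16, adjusted p = 0.0788) and Idh3b (0.08, adjusted p = 0.0818) lost their calls there.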

Other observations

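Some further genes of fatty acid breakdown, most of them peroxisomal, are given by their values alone. They were chosen after their values were seen and are no tally of peroxisomal genes. Crot, the peroxisomal carnitine octanoyltransferase, had 68.2 to 74.0 CPM in CP CML and 86.7 to 100.6 CPM in BC CML, without overlap (log2 fold change 0.41, adjusted p = 4.59e-08 by edgeR's quasi-likelihood test). Acox3, the oxidase of branched chains, had 64.6 to 73.4 CPM against 49.0 to 57.7 CPM and fell by 0.37, and Decr2, the peroxisomal counterpart of Decr1, had 13.0 to 16.8 CPM against 9.23 to 12.8 CPM and fell by 0.47, both without overlap. Abcd3, a peroxisomal transporter, rose by 0.20 and Acaa1a, a peroxisomal thiolase, fell by 0.18, both with overlap (adjusted p = 0.00798 and 0.00797), while Hsd17b4, a peroxisomal bifunctional enzyme, and Acad11 did not pass (-0.04 and -0.05, adjusted p = 0.371 and 0.570). In the same mice Decr1, the mitochondrial reductase, rose by 0.93. Acad9, a mitochondrial protein needed to assemble respiratory complex I, had 37.2 to 39.97 CPM against 44.998 to 54.0 CPM and rose by 0.41.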
